A study of Homo sapiens with 6 samples.

Results

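The E2F transcription factors and their DP partners were examined in H460 cells, an established human lung cancer cell line, after glutamine withdrawal. The members are the 8 E2F genes E2F1 to E2F8 and the dimerization partner genes TFDP1 and TFDP2, taken by gene symbol, and all 10 were found among the 24462 distinct symbols counted. The depleted group (3 libraries) was kept for 24 h in RPMI 1640 without glutamine and with 10% dialyzed serum. The replete group (3 libraries) was H460 with glutamine, grown in RPMI 1640 with 10% fetal bovine serum, and the labels do not spell out its serum over the same hours. Each library was made from 500 ng of total RNA with a 3′-end mRNA kit (QuantSeq), which reads the polyadenylated end of a transcript, so isoforms that share an end, such as the long and short forms of E2F3, were counted together. Separate cultures per library are not stated in the labels, and p-values therefore speak to the spread among these libraries, which may be technical.

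E2F proteins bind DNA as dimers with a DP protein and set the timing of the genes needed to enter S phase. E2F1, E2F2 and E2F3 are described as activators, which the retinoblastoma protein RB holds in check until cyclin-dependent kinases phosphorylate it. E2F4 and E2F5 act mostly as repressors with the RB relatives p107 and p130, E2F6 represses through Polycomb proteins and does not bind RB, and the atypical factors E2F7 and E2F8 bind DNA without DP and repress other E2F targets.

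The depleted libraries held 8667798 to 10914899 counts and the replete libraries 7550849 to 9028230. Levels are given as CPM, which divide each count by its library total, and the 3 counts that a library with none could still have held equal 0.275 to 0.397 CPM. Counting error alone is covered by that limit and by the intervals on shares. Depleted replicate 2 stood apart, its counts giving a chi-square of 18.0 per degree of freedom against depleted replicate 1 and 10.9 against depleted replicate 3, while the other pairs within a group gave 1.5 to 3.71. The labelled lung cancer cell was checked against 5 epithelial markers, whose summed level was 761 to 881 CPM in depleted and 2067 to 2092 CPM in replete libraries. The keratins KRT8, KRT18 and KRT19 made up nearly all of it, and the surface markers EPCAM and CDH1 averaged 0.404 CPM or less in both groups. Fibroblast markers (5 genes, all with counts) summed to 34.9 to 110.3 CPM in depleted and 17.6 to 31.7 CPM in replete libraries, blood markers (5 genes, all with counts) to 4.12 to 5.61 CPM in depleted and 6.31 to 8.84 CPM in replete libraries, and endothelial markers (3 genes, CDH5 and VWF at 0 in all libraries) to at most 0.115 CPM in depleted and 0.126 CPM in replete libraries. The upper end for fibroblast markers in depleted libraries came from replicate 3. There COL1A1 stood at 56.5 CPM, against 7.51 and 6.19 CPM in depleted replicates 1 and 2, and COL1A2 at 18.2 CPM, against 0.183 and 0.344 CPM. The part of all these markers in the results below was not tested. All CPM use library totals, whereas log2 fold changes use trimmed-mean (TMM) factors, and with library totals alone the median log2 fold change shifts by −0.23.

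Several E2F genes are themselves known to be regulated through E2F sites, so the promoters of members were searched for the E2F consensus, in the forms TTTGGCGC, TTTGCCGC, TTTCGCGC and TTTCCCGC on both strands. RefSeq windows (GRCh38.p14) covered 8 of the 10 members, all but E2F5 and E2F8, whose transcripts were both lower in depleted cells. The 250 bases before each annotated start were read. A form of the motif was found in 4 of 11 member windows, against 2.79% of all 35116 windows of that length. The windows of E2F1, E2F2 and TFDP1 are shown because their transcripts were lower in depleted cells, the first window of E2F3 because it also holds the motif, and those of E2F4 and E2F6 because they hold none and their transcripts were higher. These windows were picked for display with the transcript results known, and a link between motif and level was not tested. Capitals mark the motif in its exact forms, and near matches were not counted.
E2F1 (chr20:33686386-33686635, minus strand): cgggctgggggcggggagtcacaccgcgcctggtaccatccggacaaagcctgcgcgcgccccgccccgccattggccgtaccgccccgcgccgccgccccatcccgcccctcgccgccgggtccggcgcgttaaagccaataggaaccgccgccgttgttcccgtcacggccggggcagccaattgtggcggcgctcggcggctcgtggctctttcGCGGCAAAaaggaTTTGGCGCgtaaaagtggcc
E2F2 (chr1:23531234-23531483, minus strand): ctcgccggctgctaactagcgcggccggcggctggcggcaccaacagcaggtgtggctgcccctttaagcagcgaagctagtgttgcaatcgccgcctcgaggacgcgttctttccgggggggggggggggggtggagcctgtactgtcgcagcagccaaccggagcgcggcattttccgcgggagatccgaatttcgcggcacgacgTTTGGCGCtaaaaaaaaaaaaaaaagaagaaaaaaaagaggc
TFDP1 (chr13:113584503-113584752, plus strand): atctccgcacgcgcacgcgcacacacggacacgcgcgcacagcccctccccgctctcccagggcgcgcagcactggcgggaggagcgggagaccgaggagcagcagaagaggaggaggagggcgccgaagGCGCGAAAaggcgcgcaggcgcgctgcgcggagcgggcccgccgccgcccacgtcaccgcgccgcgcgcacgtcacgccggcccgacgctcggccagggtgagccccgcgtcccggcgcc
E2F3 (chr6:20401629-20401878, plus strand): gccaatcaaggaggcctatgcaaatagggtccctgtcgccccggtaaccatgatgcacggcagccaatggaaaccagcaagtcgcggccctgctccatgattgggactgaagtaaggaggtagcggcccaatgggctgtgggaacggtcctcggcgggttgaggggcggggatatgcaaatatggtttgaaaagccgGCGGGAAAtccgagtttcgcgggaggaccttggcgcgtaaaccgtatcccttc
E2F4 (chr16:67191905-67192154, plus strand): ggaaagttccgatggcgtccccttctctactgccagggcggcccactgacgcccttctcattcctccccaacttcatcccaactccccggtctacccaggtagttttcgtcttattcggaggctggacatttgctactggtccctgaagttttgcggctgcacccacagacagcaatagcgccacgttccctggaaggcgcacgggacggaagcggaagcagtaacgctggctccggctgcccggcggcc
E2F6 (chr2:11466162-11466411, minus strand): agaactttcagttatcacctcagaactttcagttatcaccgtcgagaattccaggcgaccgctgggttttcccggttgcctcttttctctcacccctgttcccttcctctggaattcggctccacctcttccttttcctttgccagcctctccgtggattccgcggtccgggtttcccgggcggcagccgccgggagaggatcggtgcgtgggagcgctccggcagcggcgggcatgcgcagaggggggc

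In E2F1 the motif lay at −33 to −26 and again at −20 to −13, counted from the annotated start, and in E2F2 it lay at −42 to −35. The TFDP1 match lay at −120 to −113 and the E2F3 match at −53 to −46. Windows of E2F7 and TFDP2 and the second window of E2F3 held no match. The CCAAT box (CCAAT, both strands), a binding element of NF-Y found in 32.0% of all windows, was present in the windows of E2F1 and E2F7. It was also present in the first window of E2F3 and the first window of TFDP2, and not in their other windows. The cell cycle homology region letters (TTTGAA, both strands, 13.3% of all windows) were present in the first window of E2F3 and in the second and the third window of TFDP2. A match describes these letters only, and binding was not measured.

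The comparison asked how each member differed between depleted and replete cells. The transcripts divided by member: E2F1, E2F2, E2F5, E2F8 and TFDP1 fell and E2F3, E2F4, E2F6, E2F7 and TFDP2 rose in the depleted cells, with E2F6 the most raised and E2F8 the most lowered in fold. In the quasi-likelihood test of edgeR all 10 passed the adjusted p threshold of 0.05, as did 78.6% of the 12739 genes tested, 39.1% being higher and 39.4% lower. E2F8 passed the filter on low counts only through the replete libraries. CPM ranges of the groups, on library totals, did not overlap for 7 of the 10, against 81.0% of genes tested, and the overlapping members were E2F3, E2F7 and TFDP2. On the TMM factors behind the fold changes the ranges were apart for all 10, against 80.9% of genes tested. In bulk RNA, fewer cells in a cell cycle phase and less transcript per cell cannot be told apart.

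**Figure D1:**
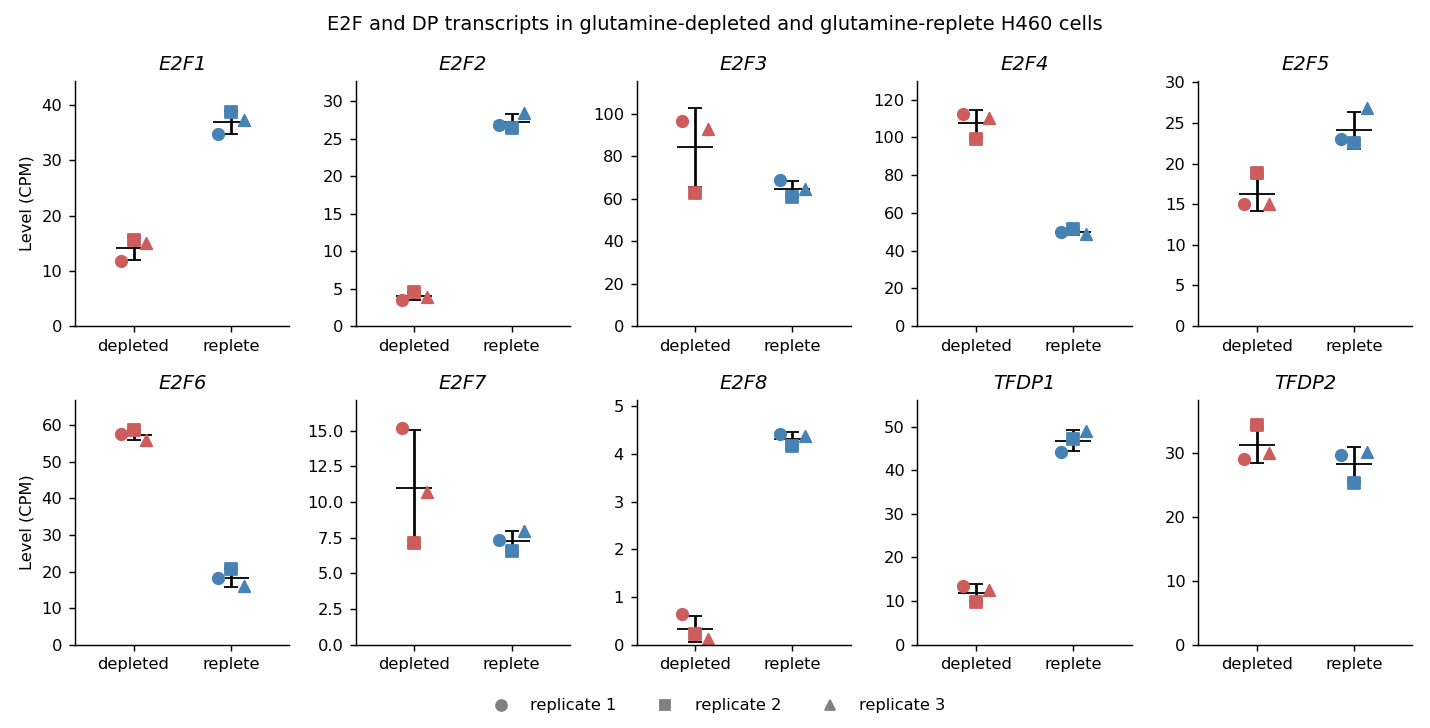
Level of each E2F and DP transcript in CPM (vertical axes from 0) in 3 depleted and 3 replete libraries, with a symbol per replicate, the mean as a horizontal line and the SD as an error bar. E2F1, E2F2, E2F5, E2F8 and TFDP1 are lower in every depleted library, E2F4 and E2F6 are higher in every one, and the groups overlap for E2F3, E2F7 and TFDP2 in these CPM, which use library totals.

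Among the activators, E2F1 and E2F2 fell while E2F3 rose. E2F1, the best known activator of S-phase genes, stood at 11.7, 15.6 and 15.1 CPM in depleted libraries and at 34.7, 38.8 and 37.3 CPM in replete libraries. Every depleted library was below every replete one, and E2F1 fell by 1.16 on the log2 scale (SE 0.13, edgeR adjusted p = 2.72e-06). E2F2, a close relative of E2F1, had 3.48, 4.58 and 3.92 CPM in depleted libraries, against 26.9, 26.4 and 28.5 CPM in replete libraries. It fell by 2.55 on the log2 scale (SE 0.15, edgeR adjusted p = 5.36e-09), and 5.33% of all genes tested had a lower fold change. E2F3, the activator with 2 promoters, had 96.7, 62.5 and 93.0 CPM in depleted libraries, against 68.6, 60.9 and 64.4 CPM in replete libraries. In these CPM, depleted replicates 1 and 3 were above all replete libraries and depleted replicate 2 lay among them, whereas on TMM factors depleted replicate 2 was at 68.2 CPM, against 56.4 to 63.1 CPM in replete libraries. On the log2 scale E2F3 rose by 0.61 (SE 0.14, edgeR adjusted p = 0.00214), with 0.78 without depleted replicate 2 (adjusted p = 2.40e-12) and 0.38 with library totals alone (adjusted p = 0.0354). The depleted group spread widely, at 84.1 ± 18.7 CPM, against 64.6 ± 3.85 CPM in the replete group (SD, n = 3 each).

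The repressors E2F4 and E2F6 rose and E2F5 was slightly lower. E2F4, which represses cell cycle genes with p107 and p130 in resting cells, had 113, 99.0 and 111 CPM in depleted libraries and 49.7, 51.4 and 48.6 CPM in replete libraries. All depleted libraries were well above all replete ones (log2 fold change 1.33, SE 0.08, edgeR adjusted p = 9.51e-09), and 15.8% of genes tested had a higher fold change. E2F6, the Polycomb-associated repressor, stood at 57.8, 58.8 and 56.1 CPM in depleted libraries and at 18.3, 20.7 and 15.9 CPM in replete libraries. It had the smallest p of the members and rose by 1.88 on the log2 scale (SE 0.11, edgeR adjusted p = 4.62e-09), a 3.68-fold difference that 9.18% of genes tested exceeded. E2F5, the second p130 partner, had 15.0, 18.8 and 15.0 CPM in depleted libraries, against 23.0, 22.5 and 26.8 CPM in replete libraries. The groups did not overlap, and E2F5 fell by 0.34 (SE 0.14, edgeR adjusted p = 0.0358), or by 0.57 with library totals alone. The call for E2F5 was lost without depleted replicate 1 (log2 fold change −0.27, adjusted p = 0.111), depleted replicate 3 (−0.28, 0.125) or replete replicate 3 (−0.27, 0.145) and with DESeq2 (−0.32, 0.0871). Exons of E2F5 overlap those of C8orf59 on the other strand in the GENCODE 29 annotation, and C8orf59 stood at 40.6 to 44.0 CPM in depleted and 49.0 to 54.4 CPM in replete libraries, so reads of the pair may have been shared, because use of strand in counting is not stated.

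The atypical factors went in opposite directions. E2F8, which in dividing cells is transcribed with the S-phase program, had 7, 2 and 1 counts in depleted libraries and 40, 33 and 33 counts in replete libraries, equal to 0.641, 0.229 and 0.115 CPM against 4.43, 4.17 and 4.37 CPM. Depleted replicates 2 and 3 were at or under the limit of 3 counts and every replete library was above every depleted one. The fitted log2 fold change was −3.35 (95% interval −4.22 to −2.48, edgeR adjusted p = 5.23e-06), and −4.31 without depleted replicate 1. The depleted level rests on 10 counts in all. E2F7, which can heterodimerize with E2F8 and is also a target of p53, had 15.2, 7.10 and 10.7 CPM in depleted libraries and 7.31, 6.57 and 7.95 CPM in replete libraries. Depleted replicates 1 and 3 were above the replete libraries and depleted replicate 2 lay among them, whereas on TMM factors it was at 7.75 CPM, against 6.08 to 7.36 CPM in replete libraries. Its log2 fold change was 0.84 (SE 0.24, edgeR adjusted p = 0.00708), 0.53 without depleted replicate 1 (adjusted p = 0.0338) and 1.08 without depleted replicate 2 (adjusted p = 6.82e-07).

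The DP partners separated as well. TFDP1, which encodes DP1, the main partner of the E2F proteins in most cells, had 13.4, 9.74 and 12.5 CPM in depleted libraries, against 44.3, 47.2 and 49.0 CPM in replete libraries. It fell by 1.75 on the log2 scale (SE 0.13, edgeR adjusted p = 3.57e-08), with no overlap between groups. TFDP2, which encodes DP2, stood at 29.1, 34.4 and 30.0 CPM in depleted libraries and at 29.7, 25.3 and 30.1 CPM in replete libraries. These levels overlapped, whereas on TMM factors the groups were apart, with 31.4 to 37.5 CPM in depleted and 23.4 to 27.9 CPM in replete libraries, and the log2 fold change was 0.36 (95% interval 0.11 to 0.61, edgeR adjusted p = 0.0111). The call for TFDP2 rested on the scaling, since with library totals alone its log2 fold change was 0.14 (adjusted p = 0.289), and it was also lost without replete replicate 2 (0.27, adjusted p = 0.0797) and with only genes of a mean of at least 10 CPM (0.26, adjusted p = 0.0541).

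**Figure D2:**
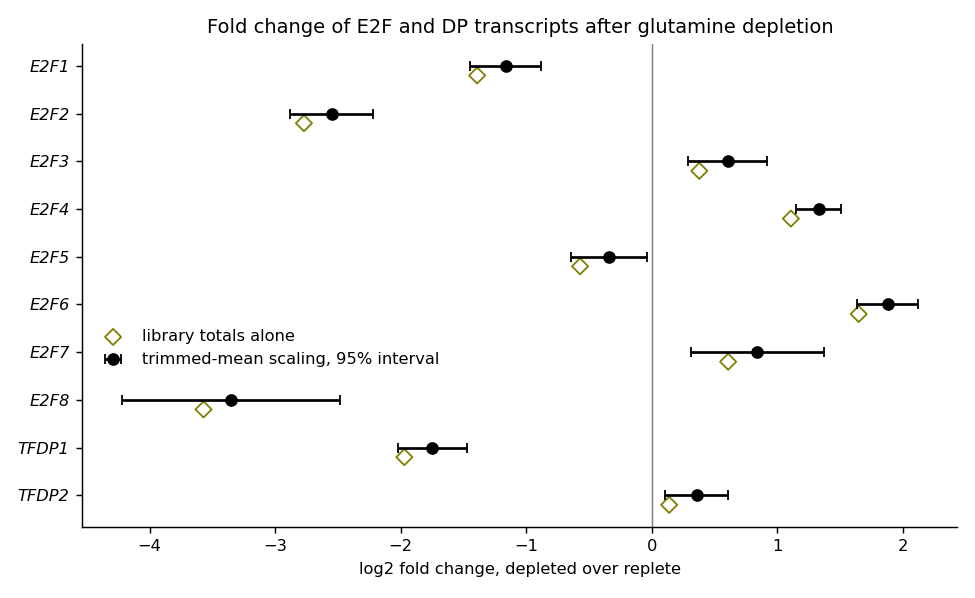
log2 fold change of each member, depleted over replete (horizontal axis), with filled points and 95% intervals from edgeR on trimmed-mean factors and open diamonds for library totals alone. Every diamond lies left of its point and on the same side of 0, and that of TFDP2 (0.14) is nearest to 0.

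Ratios within a library do not depend on how libraries are scaled. Counts of E2F1 to E2F8 together came to 2327 to 3418 per depleted library and 1765 to 2103 per replete library, and because 3′-end reads do not grow with transcript length their shares were used to describe the make-up of the family. Activators (E2F1, E2F2 and E2F3) held 35.7% (95% Wilson interval 34.1 to 37.3), 31.0% (29.2 to 32.9) and 36.8% (35.0 to 38.7) of these counts in depleted libraries. In replete libraries they held 55.9% (53.7 to 58.0), 54.5% (52.2 to 56.7) and 55.7% (53.4 to 58.0). The activator share was lower in every depleted library, by 20.8 percentage points on average, a difference larger than the SD of 3.07 points in depleted and 0.760 points in replete libraries. The two-sided exact permutation test over libraries gave p = 0.10, the smallest that 3 against 3 allows, or 0.15 adjusted over the 3 classes.

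The share of E2F4, E2F5 and E2F6 was 59.2%, 66.2% and 59.6% in depleted libraries, against 39.1%, 40.9% and 39.0% in replete libraries. It was 22.0 points higher on average (exact permutation p = 0.10, 0.15 adjusted). Its members differed, with mean differences, depleted minus replete, of 15.0 points for E2F4, 11.8 for E2F6 and −4.76 for E2F5. The E2F5 share was lower in every depleted library. For the atypical pair the shares overlapped, with 5.06%, 2.75% and 3.56% in depleted and 5.04%, 4.64% and 5.27% in replete libraries (exact permutation p = 0.30). Within the activators, E2F3 made up 86.4%, 75.6% and 83.0% of counts in depleted libraries, against 52.7%, 48.3% and 49.4% in replete libraries. Its share of all E2F1 to E2F8 counts overlapped between groups, with 30.9%, 23.5% and 30.5% in depleted and 29.4%, 26.3% and 27.5% in replete libraries. Between the DP genes, TFDP1 made up 31.5%, 22.1% and 29.3% in depleted libraries and 59.9%, 65.2% and 62.0% in replete libraries. For 1 count of E2F1 there were 9.60, 6.35 and 7.31 counts of E2F4 in depleted libraries, and 1.43, 1.33 and 1.30 in replete libraries. TFDP1 thus gave fewer counts than TFDP2 in each depleted library and more in each replete library.

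**Figure D3:**
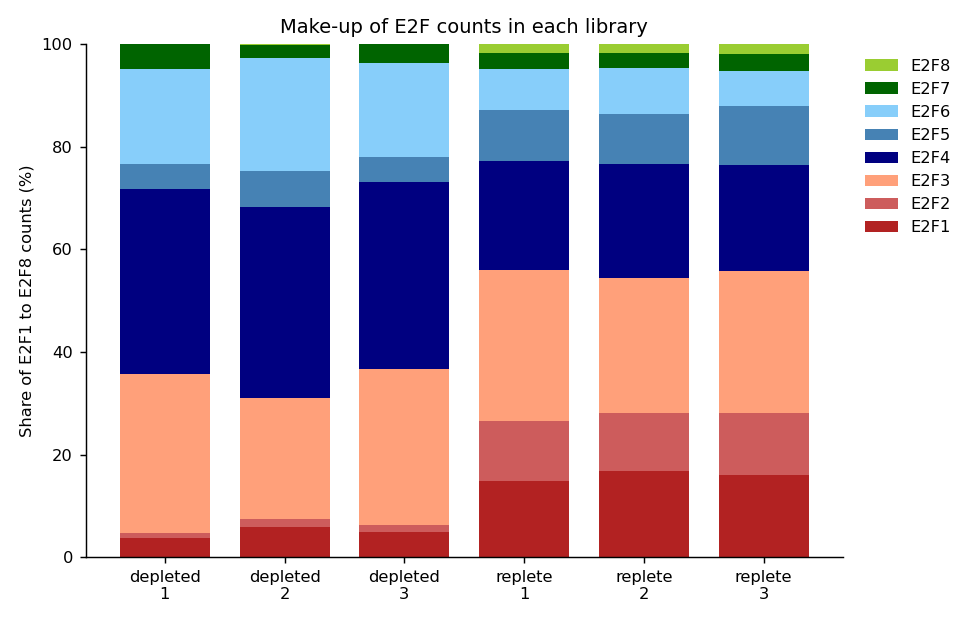
Share of each E2F gene in the counts of E2F1 to E2F8 (vertical axis, percent) for each of 3 depleted and 3 replete libraries. E2F1 and E2F2 (darker reds) shrink to 3.74 to 5.84% and 1.11 to 1.72% in depleted libraries, against 14.9 to 16.8% and 11.4 to 12.2% in replete libraries. E2F4 and E2F6 take larger shares in depleted libraries and E2F5 takes a smaller one.

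The cell cycle genes that E2F proteins control were lower in depleted cells. Of 31 listed targets, 29 fell and 0 rose, with a median log2 fold change of −1.33. Over all genes tested 39.4% fell and the median was −0.02. This list and those below were chosen with earlier results of these data known, so the contrast with all genes is a description. CDT1, which licenses replication origins, fell by 3.78 and CDC6, which loads the replicative helicase, fell by 2.59. The helicase subunit MCM4 fell by 2.19, DNMT1, the maintenance DNA methyltransferase, fell by 1.41 to 92.4 ± 4.41 CPM in depleted cells against 287 ± 11.8 CPM in replete cells (n = 3 each), and RRM2, a ribonucleotide reductase subunit, fell by 1.23. CCNE1, the cyclin E1 gene and a classic E2F1 target, had 2.29, 3.55 and 2.54 CPM in depleted libraries, against 6.54, 8.21 and 8.48 CPM in replete libraries (log2 fold change −1.25, edgeR adjusted p = 0.000228). CCNE2 fell by 0.58 (edgeR adjusted p = 0.0208), a call lost without depleted replicate 2 (−0.38, adjusted p = 0.0673), without replete replicate 2 (adjusted p = 0.0538) or 3 (0.0528), and with DESeq2 (0.0581), and its exons overlap those of INTS8 on the other strand. The members that did not pass were EZH2, the Polycomb methyltransferase (log2 fold change 0.19, 95% interval −0.02 to 0.39), and POLA2, a subunit of DNA polymerase alpha (0.19, −0.08 to 0.45). EZH2 and POLA2 were named after their values were seen. The count of targets that rose was 0 in edgeR, also at an unadjusted p under 0.05, and 0 with DESeq2 and limma-voom, but 1 when depleted replicate 1 or depleted replicate 2 was left out.

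Targets linked to E2F1 and cell death moved both ways. Of 9 listed, 8 were tested, 5 rose and 3 fell (median log2 fold change 0.43), where 39.1% of all genes tested rose and 39.4% fell, and HRK had too few counts. BBC3, which encodes PUMA and is also a p53 target, rose 7.99-fold to 254 ± 21.7 CPM, against 37.3 ± 2.85 CPM in replete cells (n = 3 each). PMAIP1, which encodes NOXA, rose by 2.42 and DIABLO, which antagonizes inhibitors of apoptosis, rose by 1.23. BCL2L11, which encodes BIM, fell by 1.79 and APAF1, the apoptosome scaffold, fell by 0.81, with exons that overlap those of ANKS1B on the other strand. TP73, the p53 relative and E2F1 target, averaged 1.21 ± 0.493 CPM in depleted and 2.41 ± 0.0272 CPM in replete cells (log2 fold change −0.80, edgeR adjusted p = 0.0489). That call was lost in 8 of 13 alternatives, at −0.45 on the log2 scale without depleted replicate 1, and TP73 overlaps TP73-AS1.

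**Figure D4:**
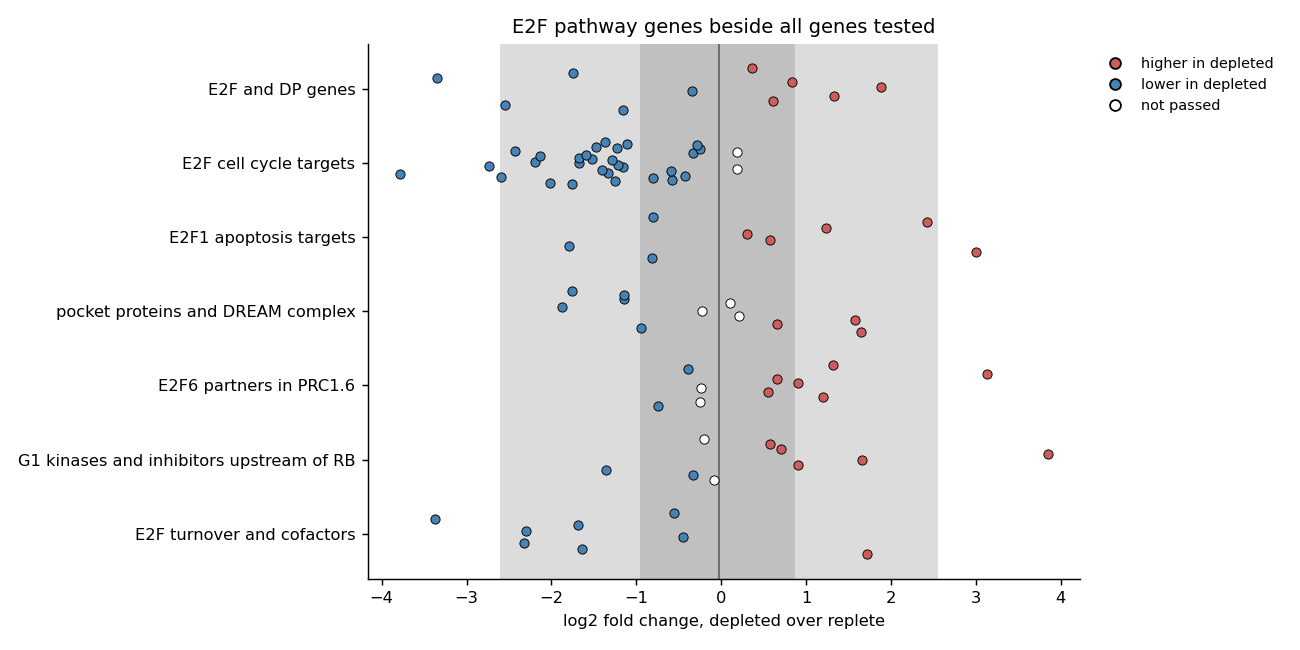
log2 fold change, depleted over replete (horizontal axis), of each tested gene in the E2F family and 6 lists of E2F pathway genes, in red if higher, blue if lower and white if not passed at an adjusted p of 0.05. Grey bands span the 5th to 95th and 25th to 75th percentiles of all genes tested (−2.60 to 2.54 and −0.94 to 0.86) and the vertical line is their median, and the cell cycle targets lie almost wholly left of 0.

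The pocket proteins, which bind E2F, differed from one another. RBL1 (p107) fell by 1.14, with 6.32, 6.07 and 5.77 CPM in depleted and 15.5, 13.6 and 18.0 CPM in replete libraries (edgeR adjusted p = 2.03e-05). RBL2 (p130) fell by 1.76, with 7.05, 4.12 and 5.65 CPM in depleted and 21.9, 24.1 and 21.3 CPM in replete libraries (edgeR adjusted p = 8.52e-07). Exons of RBL2 overlap those of AKTIP on the other strand, which stood at 4.93 to 6.92 CPM in depleted and 23.0 to 23.7 CPM in replete libraries, so the fall of either may include reads of the other. RB1 did not pass, with 50.9, 26.2 and 44.9 CPM in depleted libraries and 47.3, 41.0 and 45.6 CPM in replete libraries (log2 fold change 0.10, 95% interval −0.40 to 0.59, edgeR adjusted p = 0.694). Depleted replicate 2 was the lowest for RB1, and without it the log2 fold change was 0.33 (adjusted p = 0.000774).

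In the DREAM complex, in which E2F4 or E2F5 with a DP protein and p107 or p130 join the MuvB core to silence cell cycle genes, subunits moved both ways. LIN52, the core subunit that anchors p130, rose by 1.58 and DYRK1A, the kinase that phosphorylates LIN52, rose by 1.65 to 92.0 ± 5.70 CPM in depleted cells, against 34.3 ± 3.48 CPM in replete cells (n = 3 each). LIN37 rose by 0.66 (edgeR adjusted p = 0.0341), and its call was lost in 7 of 13 alternatives. MYBL2, the B-Myb factor that replaces E2F and pocket proteins on MuvB in S phase and is itself an E2F target, fell by 1.87, with 30.1 ± 4.53 CPM in depleted and 128 ± 8.07 CPM in replete cells (n = 3 each). RBBP4, a histone-binding core subunit, fell by 1.14, but its exons overlap those of SYNC on the other strand, with 15.8 to 20.4 CPM in depleted and 43.6 to 45.5 CPM in replete libraries. LIN54, the DNA-binding subunit, did not pass (log2 fold change 0.21, 95% interval −0.62 to 1.04), with 30.3, 10.9 and 23.4 CPM in depleted libraries, and rose by 0.53 without depleted replicate 2 (adjusted p = 0.000139). Over the 11 genes of pocket proteins, MuvB and associated factors, 3 rose, 5 fell and 3 did not pass, so 72.7% were called, against 78.6% of all genes.

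The partners of E2F6 in the Polycomb complex PRC1.6 also moved both ways. Of 10 listed, 6 rose, 2 fell and 2 did not pass, so 80.0% were called, near the 78.6% of all genes. Over all genes tested 39.1% rose, and the median log2 fold change was 0.60 for the list and −0.02 over all genes. RYBP, a subunit shared by several Polycomb complexes, had 174, 176 and 173.5 CPM in depleted libraries and 27.1, 21.0 and 21.7 CPM in replete libraries, and rose by 3.13 (SE 0.10, edgeR adjusted p = 2.38e-11). Its paralog YAF2 rose by 1.32, and MAX, which pairs with the MGA subunit, rose by 1.20. CBX3, which encodes the heterochromatin protein HP1 gamma, fell by 0.74 and WDR5, an adaptor of chromatin complexes, fell by 0.39. Exons of CBX3 overlap those of HNRNPA2B1 on the other strand. HNRNPA2B1 stood at 464 to 765 CPM in depleted and 1234 to 1283 CPM in replete libraries. These libraries read the polyadenylated end of a transcript, and the end at which the overlap lies was not examined. Whether the fall of CBX3 includes reads of HNRNPA2B1 was not tested.

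Upstream of RB, genes of the cyclin-dependent kinases and their inhibitors moved both ways. Of 13 listed genes, 9 were tested, 5 rose, 2 fell and 2 did not pass, so 77.8% were called, near the 78.6% of all genes. CDKN1A (p21), which blocks the kinases that release E2F, rose by 3.85 to 889, 1134 and 919 CPM in depleted libraries, against 84.1, 77.2 and 77.3 CPM in replete libraries. CDK6, a cyclin D kinase, rose by 1.66 and CDK4, its relative, rose by 0.90, with exons that overlap those of TSPAN31 on the other strand. CDK2, the partner of cyclin E, fell by 1.36 to 55.9 ± 1.15 CPM in depleted cells, against 168 ± 5.82 CPM in replete cells (n = 3 each). CCND3 fell by 0.33 (edgeR adjusted p = 0.0194), a call lost without depleted replicate 1 (−0.24, adjusted p = 0.0861), depleted replicate 3 (−0.30, 0.0662) or replete replicate 2 (−0.29, 0.0710). CCND1 did not pass (log2 fold change −0.09, edgeR adjusted p = 0.346), although with library totals alone it fell by 0.32 (adjusted p = 0.00396). CDKN2A, which encodes p16, had 1 count in depleted and 0 counts in replete libraries.

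Among genes of E2F turnover and E2F cofactors, 9 were listed and 8 tested. Of those tested, 7 fell and 1 rose, where 39.4% of all genes tested fell and 39.1% rose. TFDP3, a further DP gene, had no count in any library. SKP2, a ubiquitin ligase subunit reported to bind E2F1, had 8.34, 3.21 and 9.23 CPM in depleted libraries and 84.5, 88.4 and 80.7 CPM in replete libraries (log2 fold change −3.37, edgeR adjusted p = 1.00e-05). HCFC1, a coregulator that E2F proteins recruit to promoters, fell by 2.30, CDC20, an activator of the anaphase-promoting complex, fell by 2.32, and PHB, a prohibitin that binds RB and E2F1, fell by 1.69. ARID3A, first isolated as an E2F1-binding protein, rose by 1.72 to 34.2 ± 7.13 CPM in depleted cells, against 12.1 ± 1.90 CPM in replete cells (n = 3 each).

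Across the 6 libraries, log2 levels of the genes most like E2F6 followed it with Pearson correlations from 0.9990 to 0.9993. These were ZBTB5, PCDHA8, NRIP1, FNTA and LDLRAD4. LDLRAD4 averaged 2.60 CPM in depleted and 0.121 CPM in replete libraries, where 3 counts equal 0.332 to 0.397 CPM. It passed the filter on low counts only through the depleted libraries. All libraries of a group share their condition, and 483 of 12738 genes had a correlation over 0.99 with E2F6, so the ranking is a description. The 3′ exons of PCDHA8 are shared with other protocadherin genes of its cluster, and its count is uncertain.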

How the data were processed

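RNA of 3 depleted and 3 replete libraries (3′-end sequencing) was analysed from deposited raw counts per gene symbol, 1 library per file. Bowtie2, edgeR and hg19 are named, with no role or version, in the submitters' processing notes. The counting program, strand setting and annotation are not given in the sources used here. Counts of the 286 symbols on several entries were summed, and each member had 1 entry.

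Genes were filtered with filterByExpr (minimum count 10, minimum total 15), scaled by TMM factors (0.917 to 0.929 in depleted, 1.08 to 1.09 in replete libraries) and compared with edgeR 4.0.16 (R 4.3.3; glmQLFit with robust estimates and glmQLFTest), two-sided, with Benjamini-Hochberg adjustment over the 12739 genes tested and a threshold of 0.05. SE and intervals come from the fold change and the F statistic. On simulated counts of 12517 genes, 91 changes of 1 and 109 changes of 2 on the log2 scale were planted. The test recovered 87.9% and 97.2% of them. Of its 207 calls 21 were false, a share above the threshold of 0.05. Far fewer genes changed in the simulation than the 78.6% called in the data. Shares were compared by exact permutation. Alternatives used DESeq2 1.42.0 and limma 3.58.1 (voom), other scalings, filters and entries, and each library left out.

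The members and lists were chosen with earlier results of these data known. The named genes are the 10 members, from each list the 3 called genes per direction with the lowest p (5 for cell cycle targets), 13 genes in any case, and the 5 genes most correlated with the member of smallest p (log2 of CPM plus 1). A gene that this rule would name is not reported here. Exon overlaps came from GENCODE 29 (GRCh38) by gene name only. They were taken over all exons of a gene, not only the 3′ ends that these libraries read. Processed pseudogenes of E2F3, E2F4 and E2F6 listed there had no entry of their own in the counts, and their part in those genes' counts was not tested. Promoter sequences are from RefSeq. Whether replicate numbers pair the libraries is not settled, and the main test did not pair them.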

Additional observations from a re-analysis of the deposited data

How the results depend on the processing

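Of 29 results (member fold changes, counts of called genes and shares of E2F counts), 22 kept their direction and their side of the threshold (for counts, stayed within 1.5 times) under every alternative run, and 0 of the values reversed. E2F5 did not pass with the DESeq2 Wald test (log2 fold change −0.32) and ran from −0.45 to −0.27 as each library was left out. TFDP2 did not pass with library totals alone (0.14) or a mean CPM of at least 10 (0.26), and ran from 0.27 to 0.42 with a library left out. E2F7 and E2F8 have no value at a mean CPM of at least 10, where 3 members rose in place of 5 and 0 apoptosis targets fell in place of 3, with fewer genes tested. With a library left out, the pocket protein and DREAM genes that rose numbered 2 to 5, the G1 genes that fell 1 to 2 (4 with library totals alone), and the cell cycle targets that rose 0 to 1. At a mean CPM of at least 10 the TMM factors were computed again, and the fold change of every member with a value moved down. E2F4 moved from 1.33 to 1.23, TFDP1 from −1.75 to −1.85 and TFDP2 from 0.36 to 0.26. The cause of these shifts, other than the new scaling and the smaller number of genes tested, was not tested. The E2F8 fold change ran from −4.31 to −2.98 with a library left out.

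Same-numbered libraries had correlations of their deviations from the group means of 0.119, 0.00611 and 0.0366. Differently numbered libraries had −0.0886 to 0.0458, and depleted replicate 2 correlated best with replete replicate 3 (0.0458). Correlations this small did not show a pairing by number and cannot exclude one. With the replicate number as a block, 4941 genes rose and 4999 fell, against 4987 and 5025 without it, and all members kept their call. TP73 did not pass with the block (log2 fold change −0.81, adjusted p = 0.0668), and 6 turnover and cofactor genes fell in place of 7. Depth limits E2F8, which had 10 counts over the depleted libraries.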
